A study of Mus musculus with 4 samples.

Results

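The genes of the muscle acetylcholine receptor and of its clustering at the neuromuscular junction were examined in ribosome-protected signal from primary mouse myoblasts. The set held 10 of the 55573 genes in the deposited table, chosen by name: the receptor subunits Chrna1, Chrnb1, Chrnd, Chrng and Chrne, and the clustering genes Agrn, Lrp4, Musk, Dok7 and Rapsn. The choice was made with values of these libraries known, because Chrna1 had stood out as lower under the knockout label. The difference between the groups is therefore given for these genes as a description, without a p-value. At least 1 read was found for 9 of the 10 genes, and 8 had the mean of at least 1 RPKM (read numbers divided by the kilobases of the gene and by the size of the library) required for the fit across all genes.

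The muscle nicotinic acetylcholine receptor is a pentameric cation channel opened by acetylcholine from the motor nerve. Its subunits are α1, β1 and δ together with γ in fetal and denervated muscle or ε in the mature synapse. Agrin secreted by the nerve binds LRP4 and thereby activates the kinase MuSK, and muscle secretes other forms of agrin. DOK7 is the adaptor that sustains MuSK activity inside the cell, and rapsyn is the scaffold that holds receptors in dense clusters. In cultured muscle cells the receptor subunit genes are known targets of the myogenic bHLH factors, and their output rises as myoblasts differentiate. Myoblasts without nerve can make the receptor but form no synapse.

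The libraries came from myoblasts of hind-limb muscle of mice 3 weeks old, grown with FGF and serum and collected on day 2 of proliferation. There were 2 wild-type (WT) libraries and 2 libraries labelled eIF5A knockout (KO). The study describes its KO as Pax7 CreERT2/+; eIF5A f/f, in which tamoxifen activates a Cre driven from Pax7, the satellite cell gene, and its WT control as Pax7 CreERT2/+, although the legend of 1 experiment gives Pax7+/+; eIF5A f/f. For the profiled cells it names only WT littermates. Whether those cells carried the Cre allele was thus not settled. Cells in the digest that never made Pax7 keep Eif5a, and no sort is described for these cultures. All libraries received cycloheximide, which holds ribosomes on the mRNA. The labels do not say whether replicates were separate animals or cultures, so p-values measure only the spread between these libraries, which may be technical.

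Eif5a, the gene named in the KO label, gave 34.89 and 65.19 RPKM in WT and 60.3 and 59.38 RPKM under the KO label. Eif5a signal was thus not lower under that label (log2 fold change 0.32, SE 0.48, limma adjusted p = 0.839). The table has 1 value for the whole gene, so signal over a deleted part was not measured. The study describes the profiled KO mice as tamoxifen-induced. It checked the knockout in satellite cells by real-time RT-PCR and immunostaining and judged the line established. Those checks were not made on these libraries. The samples are called libraries labelled KO throughout. The reads behind the RPKM values could be recovered and totalled 642429 to 704006 per library, of which 217651 to 460099 fell on protein-coding genes, fewer in both WT libraries than in both libraries labelled KO. A gene at 1 RPKM thus had few reads, and read numbers are given beside the levels. WT library 1 stood apart in Myog, the differentiation factor myogenin, with 82 reads, whereas WT library 2 had 3 and the KO-labelled libraries had 1 and 2. In these cultures, fewer cells making a transcript and less signal per cell cannot be told apart.

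The coding sequence of Chrna1, on the minus strand of chromosome 2 (mm10; gene 73563215 to 73580338), holds a run of 3 prolines, as do those of 5 other genes of the set. The factor eIF5A is known to help the ribosome form peptide bonds at such runs, which is why they are shown. In the annotated proteins, 20% of 21576 held a run of at least 3 prolines, against 6 of these 10 genes. The coding stretches are printed 5′ to 3′ with the proline codons in capitals, and the annotation was GENCODE on the mm10 build.
Chrna1, residues 377 to 379, chr2:73566792-73566830, minus strand: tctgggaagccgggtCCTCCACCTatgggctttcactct
Chrnb1, residues 495 to 497, chr11:69784624-69784659, minus strand: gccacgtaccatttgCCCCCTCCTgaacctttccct
Chrne, residues 358 to 360, chr11:70615524-70615562, minus strand: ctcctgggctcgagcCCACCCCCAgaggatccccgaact
Musk, residues 316 to 318, chr4:58344299-58347833 across an intron, plus strand: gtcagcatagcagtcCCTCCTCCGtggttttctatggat
Musk, residues 718 to 720, chr4:58373168-58373206, plus strand: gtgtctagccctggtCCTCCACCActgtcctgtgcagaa
Dok7, residues 447 to 449, chr5:35079693-35079731, plus strand: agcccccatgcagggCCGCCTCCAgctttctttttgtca
Agrn, residues 628 to 630, chr4:156176734-156176772, minus strand: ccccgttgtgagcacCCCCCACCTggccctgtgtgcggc
Except for the first run of Musk, each stretch lay within 1 exon. Chrnd, Chrng, Rapsn and Lrp4 had no run of 3. The table gives 1 value per gene, so the position of ribosomes along these stretches was not measured.

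The stretches upstream of the RefSeq start sites of Chrna1, Chrng and Chrne are shown because these subunits held the highest level, the widest fold between the groups and no reads, respectively. Each is 250 bases on GRCm38.p6 (the mm10 assembly), 5′ to 3′ toward the start. Capitals mark E-boxes (CANNTG), the letters bound by myogenic bHLH factors, and in Chrne also CCGGAA, the core letters bound by the ETS factor GABP.
Chrna1, chr2:73580339-73580588, minus strand: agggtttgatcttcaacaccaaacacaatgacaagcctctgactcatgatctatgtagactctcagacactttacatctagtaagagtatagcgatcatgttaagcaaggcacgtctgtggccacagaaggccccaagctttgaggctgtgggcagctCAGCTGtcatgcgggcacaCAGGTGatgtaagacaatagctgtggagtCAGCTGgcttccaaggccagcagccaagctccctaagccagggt
Chrng, chr1:87205561-87205810, plus strand: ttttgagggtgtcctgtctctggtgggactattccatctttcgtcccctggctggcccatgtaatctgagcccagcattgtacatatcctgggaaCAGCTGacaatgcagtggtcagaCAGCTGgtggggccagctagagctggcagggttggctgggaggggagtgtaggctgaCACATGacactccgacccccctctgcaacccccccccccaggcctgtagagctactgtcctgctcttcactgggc
Chrne, chr11:70619195-70619444, minus strand: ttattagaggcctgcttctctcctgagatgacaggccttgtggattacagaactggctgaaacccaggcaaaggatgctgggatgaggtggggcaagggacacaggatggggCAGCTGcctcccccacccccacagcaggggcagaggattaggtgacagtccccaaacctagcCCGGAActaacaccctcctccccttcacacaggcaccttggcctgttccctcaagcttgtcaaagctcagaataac
The E-boxes of Chrna1 began 92, 73 and 44 bases before the start, and those of Chrng 155, 132 and 75 bases before it. That of Chrne began 138 bases before the start. The RefSeq start of Chrng, 87205811, lies inside the annotated gene, which begins at 87204657, and so does the stretch shown. Chrnb1 and Musk also had 3 E-boxes each in the same window. The first Dok7 start had 1 and the first Agrn start none. The letters CANNTG, counted on both strands, stood in 66.2% of 32851 promoters, so their presence is common. CAGCTG, 1 form of those letters, was rarer, at 13% of promoters. It stood in those of Chrna1, Chrng, Chrne and Musk. CCGGAA was in 12% of promoters and, of these 7 genes, in that of Chrne. The promoters of Chrnd, Rapsn and Lrp4 are not shown. A match is a description of letters and not of binding.

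Chrna1, the subunit that carries most of the acetylcholine binding site, had the second highest mean RPKM of the set in WT myoblasts. Its level was 17.4 and 15.97 RPKM in WT (46 and 33 reads). Under the KO label it was 2.262 and 4.516 RPKM (9 and 16 reads). Both libraries labelled KO were below both WT libraries, with means of 16.7 ± 1.01 (SD, n = 2) and 3.39 ± 1.59 RPKM (SD, n = 2). The difference on log2(RPKM + 1), labelled KO minus WT, was -2.06 (SE 0.42). Pooled over libraries, WT had 5.05 times the read rate of the libraries labelled KO, with an exact 95% interval of 3.18 to 8.26 that covers counting error only. This is the difference by which the set was chosen.

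Chrnb1, the β1 subunit on chromosome 11, was at 5.243 and 9.225 RPKM in WT (8 and 11 reads) and 1.307 and 1.957 RPKM under the KO label (3 and 4 reads). The groups did not overlap, the log2 difference was -1.61 (SE 0.43), and the read rate ratio was 4.33 (interval 1.74 to 12.2). Chrnd, the δ subunit, was at 7.567 and 6.455 RPKM in WT (15 and 10 reads) and 3.018 and 3.765 RPKM under the KO label (9 and 10 reads). Its libraries did not overlap either, but the log2 difference was smaller, at -0.87 (SE 0.36), with a rate ratio of 2.1 (interval 1.11 to 4.04). Library scaling cannot change a ratio of RPKM within a library. Ratios of Chrna1 to other genes, here and below, carry the difference by which the set was chosen. The ratio of Chrna1 to Chrnd was 2.3 and 2.47 in WT and 0.75 and 1.2 under the KO label. The ratio of Chrna1 to Chrnb1 overlapped between the groups, at 3.32 and 1.73 in WT and 1.73 and 2.31 under the KO label.

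Chrng codes for the γ subunit of the fetal receptor and lies next to Chrnd on chromosome 1, with 4586 bases between them. It had 18 and 6 reads in WT (7.172 and 3.059 RPKM) and 1 and 0 reads under the KO label (0.2648 and 0 RPKM). The groups did not overlap, although the WT libraries differed from each other more than those of Chrna1 did. With 1 read in all under the KO label the rate ratio of 38.3 had an interval of 6.25 to 1576, and the log2 difference of -2.36 (SE 0.60) depends on the pseudocount. The higher Chrng value was in WT library 1, which also held most of the Myog reads, and the log2 difference without that library was -1.85.

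Chrne, the ε subunit that replaces γ in mature muscle, had no read in any library. Because the gene is short, 3 reads would have been worth 2.94 and 3.77 RPKM in WT and 1.96 and 2.2 RPKM under the KO label, so a level below these was not detectable at this depth. Chrng lay above the limit of Chrne in WT library 1 (7.172 RPKM against 2.94) and below it in WT library 2 (3.059 RPKM against 3.77) and in both libraries labelled KO. By RPKM, an order of γ and ε could therefore be read in WT library 1 alone. The coding sequences are close in length, 1557 bases for Chrng and 1482 for Chrne, unlike the gene lengths that RPKM uses. By reads, Chrng (18 and 6) lay above the limit of 3 in both WT libraries, where Chrne had 0. The proteins γ and ε shared 53.2% of aligned residues, the highest identity among the 5 subunits, and the lowest was 31.1% for Chrna1 and Chrne.

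**Figure D1:**
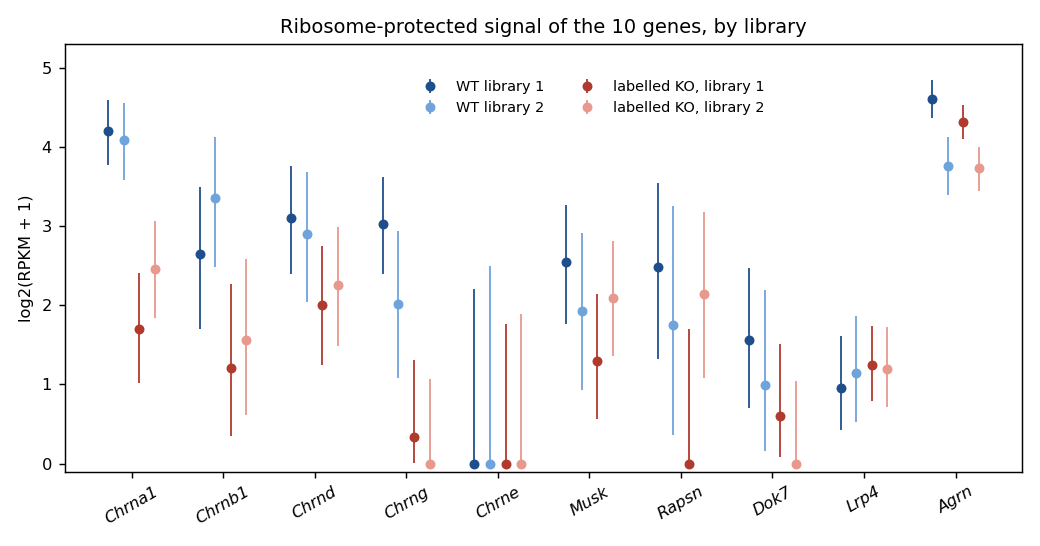
Level of each gene as log2(RPKM + 1) in each library; points are single libraries and bars are exact 95% Poisson intervals of the reads, covering counting error only. For Chrna1, Chrnb1, Chrnd and Chrng both libraries labelled KO lie below both WT libraries, Agrn overlaps, and Chrne is at 0 in all 4 libraries.

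Over the 5 subunits together, the libraries held 87 and 60 reads in WT and 22 and 30 under the KO label. Per 100000 protein-coding reads, this was 32.3 and 27.6 in WT and 4.78 and 7.79 under the KO label. Chrna1, whose difference chose the set, gave 46 and 33 of the WT reads and 9 and 16 of the others, so the sum is not independent of that choice.

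The clustering genes did not share one pattern. Agrn, which codes for agrin, had the highest WT mean RPKM of the set and the most reads (131 and 55 in WT, 159 and 92 under the KO label). Its level was 23.4 and 12.57 RPKM in WT and 18.88 and 12.27 RPKM under the KO label, so the groups overlapped (log2 difference -0.16, SE 0.48). Its rate ratio of 1.18 had an interval of 0.973 to 1.44 from counting error alone, which leaves out the spread between the WT libraries. The ratio of Chrna1 to Agrn within a library was 0.743 and 1.27 in WT and 0.12 and 0.368 under the KO label. This ratio is not independent of the choice of the set by Chrna1.

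Lrp4, the agrin receptor, was low in every library and the one gene of the set whose libraries labelled KO were both above WT. It was at 0.9475 and 1.212 RPKM in WT (6 reads each) and 1.365 and 1.297 RPKM under the KO label (13 and 11 reads). The log2 difference of 0.17 (SE 0.59) was smaller than its error, and it was -0.09 relative to the median of all genes with library sums made equal.

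Musk, the receptor kinase, was at 4.832 and 2.811 RPKM in WT (11 and 5 reads) and 1.46 and 3.279 RPKM under the KO label (5 and 10 reads). The groups overlapped, with a log2 difference of -0.54 (SE 0.48) and a rate ratio of 1.7 (interval 0.789 to 3.7). Rapsn, the rapsyn gene, was at 4.603 and 2.356 RPKM in WT and 0 and 3.435 RPKM under the KO label, from 5, 2, 0 and 5 reads. Its log2 difference was -1.04 (SE 0.80), and it was 0.03 without library 1 labelled KO, which had no read. Dok7 had 5 and 2 reads in WT and 2 and 0 under the KO label, or 1.94, 0.993, 0.5158 and 0 RPKM, and was too low for the fit. Its libraries did not overlap, but 9 reads gave a rate ratio of 5.59 with an interval of 1.06 to 55.1.

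In order of the WT mean RPKM, which is per gene length, the set ran Agrn, Chrna1, Chrnb1, Chrnd, Chrng, Musk, Rapsn, Dok7, Lrp4 and Chrne. Several neighbours did not differ beyond their spread: Agrn exceeded Chrna1 in 1 of 2 WT libraries, and Chrnb1 exceeded Chrnd in 1 of 2. Chrna1 exceeded Chrnb1 in 4 of 4 libraries. Under the KO label Chrna1 and Chrnd had the same mean to 3 digits, 3.39 RPKM each, below Agrn and above Musk. Ribosomes protect mainly coding sequence, and per kilobase of coding sequence the order changed. Chrna1 came first in WT, with a scaled value of 53.4 against 27.4 for Agrn. Chrnd (14.8) and Chrng (13.7) then came before Chrnb1 (12.2).

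Read against all genes, the set was described by counts. Both libraries labelled KO were below both WT libraries in 4 of the 8 fitted genes, and this held for 20.3% of the 11363 genes tested. The opposite held for 1 of 8, Lrp4, and for 20.1% of genes tested. Nothing is read from these counts, because this contrast chose the set and because a gene can pass the filter on low values through the group in which it is high. The median log2 difference was -0.96 in the 8 genes and 0.00026 in all genes tested. With equal library sums the median of all genes became 0.84. Relative to it Chrna1 was at -1.98, Chrnb1 at -1.63, Chrnd at -0.84 and Chrng at -2.75, whereas Musk was at -0.65, Rapsn at -1.40 and Agrn at -0.01.

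**Figure D2:**
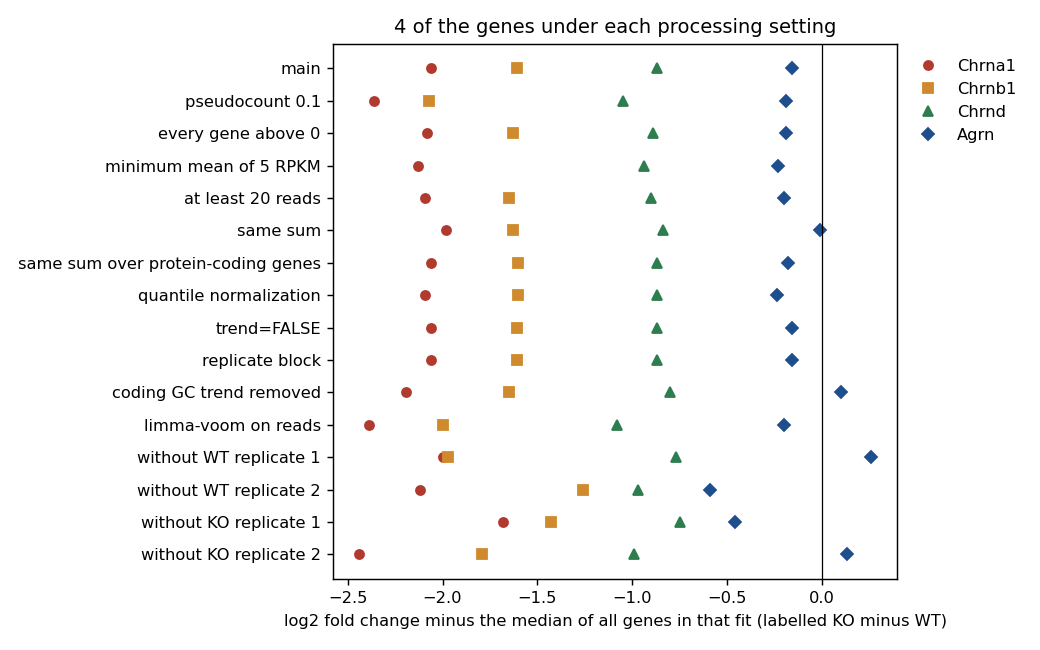
Difference of 4 of the genes (horizontal axis, log2, labelled KO minus WT) after subtraction of the median of all genes, under each processing setting (vertical axis); missing points are genes below the filter of that setting. Chrna1 lies between -2.44 and -1.68 in all settings shown, and Agrn lies on both sides of 0.

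The other genes of the junction were counted by lists of known function, 65 genes in all, of which 42 were fitted. No gene of these lists passed an adjusted p of 0.05 in limma, where 0.106% of all genes did. The smallest adjusted p was 0.629, and 1 gene was under an unadjusted 0.05, where 7.32% of all genes were. The limma-voom fit on the recovered reads likewise called none of 43, against 0.425% of all genes called lower. In that fit 2 of the 43 were under an unadjusted 0.05, against 10.1% of all genes. Among the 42 genes, 9 had both libraries labelled KO below both WT libraries and 8 had both above, shares near the 20.3% and 20.1% of all genes. Their median log2 difference was -0.10.

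In the synaptic scaffold, 1 of 5 fitted genes had a difference above 0 and 4 below, with a median of -0.18. Dag1, which codes for dystroglycan, the link from the basal lamina to the cytoskeleton, was at 32.09 and 23.37 RPKM in WT and 23.41 and 20.45 RPKM under the KO label. Utrn, the gene of the synaptic dystrophin relative utrophin, was at 7.757 and 5.707 RPKM in WT and 11.54 and 5.572 RPKM under the KO label. Both genes overlapped between the groups.

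Downstream of MuSK, 4 of 16 fitted genes were above 0 and 12 below, with a median of -0.41 and no call. The median of this list was the lowest of the 5 lists with fitted genes. Cdc42, a GTPase of the actin cytoskeleton, was at 38.59 and 47.95 RPKM in WT and 79.18 and 77.64 RPKM under the KO label (log2 difference 0.85, SE 0.42, limma adjusted p = 0.676). Src, a kinase that phosphorylates the receptor β subunit, was at 16.32 and 9.226 RPKM in WT and 5.549 and 7.931 RPKM under the KO label (log2 difference -0.80, SE 0.44, limma adjusted p = 0.692). Neither gene overlapped between the groups, Cdc42 being higher and Src lower under the KO label, and neither passed the test.

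In the synaptic basal lamina, 4 of 7 fitted genes were above 0, with a median of 0.26. Hspg2, the perlecan gene and the highest of the list, was at 79.23 and 49.54 RPKM in WT and 55.51 and 37.88 RPKM under the KO label, with overlap. Lama5, a laminin chain, was at 15.88 and 11.93 RPKM in WT and 7.842 and 9.132 RPKM under the KO label, and Nid2, which codes for nidogen-2, at 17.63, 10.26, 10.02 and 5.504 RPKM in the same order. Neither passed the test, with limma adjusted p = 0.697 for each. Ache, the acetylcholinesterase gene, had 5 and 0 reads in WT and 1 and 2 under the KO label, and its collagen tail gene Colq had none.

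Among genes of neuregulin signalling and synaptic transcription, 3 of 7 were above 0, with a median of -0.05. Gabpa, the DNA-binding subunit of GABP, was at 5.25 and 7.465 RPKM in WT and 12.41 and 12.63 RPKM under the KO label (log2 difference 0.89, SE 0.38, limma adjusted p = 0.675). Hdac4, a deacetylase that responds to denervation, was at 5.979 and 2.55 RPKM in WT and 1.883 and 1.801 RPKM under the KO label (log2 difference -0.81, SE 0.48, limma adjusted p = 0.697). Dach2 had no reads.

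For receptor assembly and glycosylation, 5 of 7 fitted genes were above 0, with a median of 0.13. Gmppb, a GDP-mannose synthase subunit, had 3 and 1 reads in WT and 13 and 14 under the KO label, or 1.787, 0.7621, 5.147 and 6.224 RPKM. Its log2 difference of 1.59 (SE 0.43) was the one under an unadjusted 0.05, and the limma adjusted p was 0.629. Canx, the gene of the chaperone calnexin, was at 60.09 and 53.37 RPKM in WT and 130.2 and 62.52 RPKM under the KO label (log2 difference 0.66, SE 0.52, limma adjusted p = 0.719). Of 11 nicotinic subunits of nerve and other tissues, 3 had any reads (Chrna7, Chrnb2 and Chrnb4, 2 reads each) and none was high enough for the fit.

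**Figure D3:**
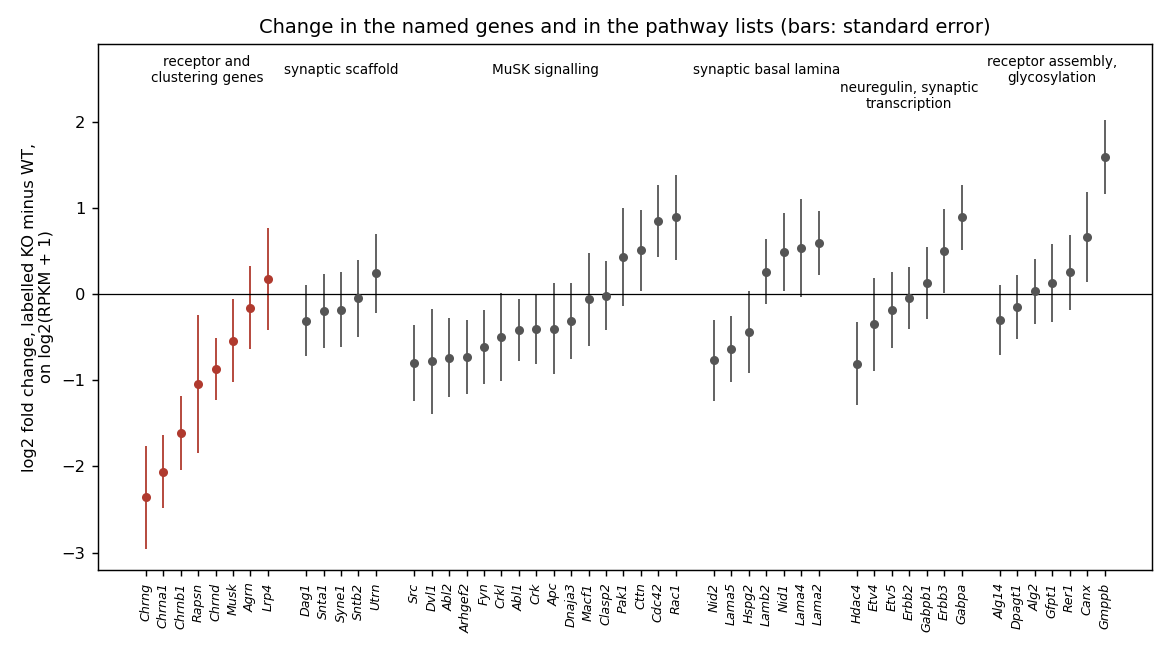
Log2 fold change on log2(RPKM + 1), labelled KO minus WT (vertical axis, bars are standard errors), for the 8 fitted receptor and clustering genes in red and the 42 fitted pathway genes in grey, grouped by list. The red points run from -2.36 (Chrng) to 0.17 (Lrp4) and were chosen on this contrast, and the grey points run from -0.81 (Hdac4) to 1.59 (Gmppb).

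Marker lists were summed beside these results. Nerve terminal markers had no read in WT and 1 and 3 reads under the KO label, and Chat, Slc5a7 and Mnx1 were at 0 in all of them. Myoblast markers summed to 231 and 179 RPKM in WT and 95.4 and 114 RPKM under the KO label. Myod1 alone gave 139.9 and 117.5 RPKM of this in WT and 48.58 and 79.83 RPKM under the KO label. Of the 6 myoblast genes 4 were lower in both libraries labelled KO, against 20.3% of all genes, and Cdh15 and Itga7 overlapped. Differentiation markers summed to 307 and 69.4 RPKM in WT and 39.8 and 37.6 RPKM under the KO label, with Tnnc2 at 0. No gene of these lists passed an adjusted p of 0.05 in limma, and 3 of 6 myoblast and 3 of 5 fitted differentiation markers were lower at an unadjusted 0.05, where 4.46% of all genes were. Both sums were thus higher in WT, as Chrna1 was, and their part in the Chrna1 result was not tested.

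Myod1, the myoblast bHLH factor, was at 139.9 and 117.5 RPKM in WT and 48.58 and 79.83 RPKM under the KO label (log2 difference -1.03, SE 0.48, limma adjusted p = 0.676). The ratio of Chrna1 to Myod1 within a library was 0.124 and 0.136 in WT and 0.0466 and 0.0566 under the KO label. It too carries the choice of the set by Chrna1. Without WT library 1, the library with most Myog reads, the Chrna1 difference was -2.00.

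Markers of other cells were present in all libraries. Fibroblast markers summed to 461 and 270 RPKM in WT and 775 and 346 RPKM under the KO label, and endothelial markers to 106 and 99.8 RPKM in WT and 139 and 112 RPKM under the KO label. Immune markers summed to 28.4 and 38.5 RPKM in WT and 25 and 25.9 RPKM under the KO label, and Schwann cell markers to 32.7, 17.4, 26.4 and 21.7 RPKM in the same order. The endothelial sums were higher and the immune sums lower in both libraries labelled KO than in both WT libraries, and the fibroblast and Schwann cell sums overlapped. More than any other gene, Dcn made up the fibroblast sum. Of the 8 fibroblast genes 6 were above 0, with a median log2 difference of 0.54, and 3 (Pdgfra, Postn and Lum) were higher and 1 (Thy1) lower in both libraries labelled KO, against 20.1% and 20.3% of all genes. Of the 5 endothelial genes 5 were above 0, with a median of 0.57. Among them 4 were higher in both libraries labelled KO, against 20.1% of all genes. The immune sum was mostly Cd68 and Lyz2. The macrophage genes Adgre1 and Csf1r of that list went the other way, with Adgre1 at 0.5123 and 1.967 RPKM in WT and 4.427 and 4.206 RPKM under the KO label, and Csf1r at 0.2873 and 0 RPKM in WT and 1.146 and 1.287 RPKM under the KO label. Their part in the Chrna1 result was not tested. Adjusted calls in these lists numbered 0 by limma and 0 by limma-voom, and 3 of 22 fitted genes were higher and 1 lower at an unadjusted 0.05 by limma, against 2.86% and 4.46% of all genes.

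**Figure D4:**
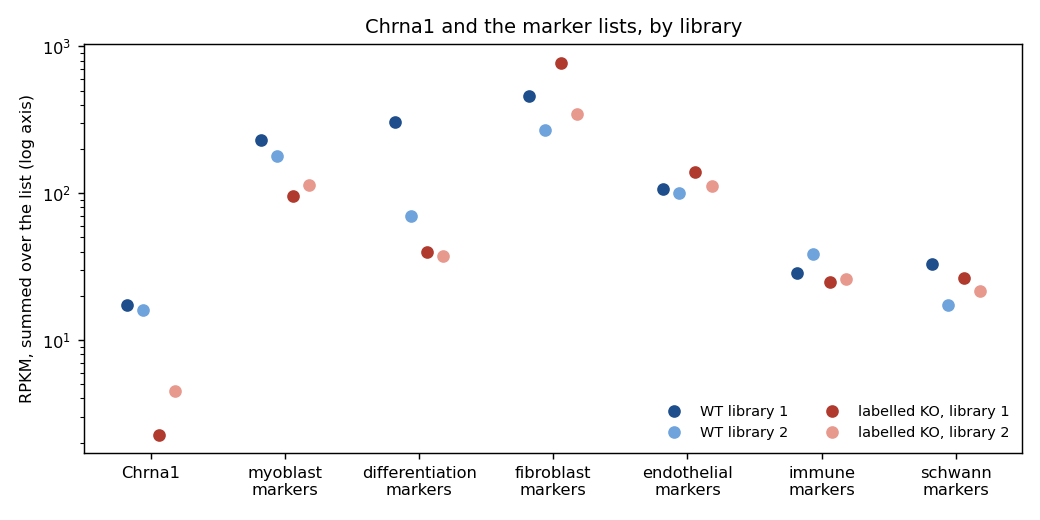
RPKM of Chrna1 and summed RPKM of each marker list (log axis) in each library; points are single libraries. Chrna1 and the myoblast and differentiation sums are higher in both WT libraries, and the fibroblast sums overlap.

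The genes most like Chrna1 over the 4 libraries were sought among 8518 fitted protein-coding genes with enough reads, by the root mean square difference of centred log2(RPKM + 1). The nearest was Atoh8, a bHLH factor gene, at a difference of 0.0634 (r = 0.998), with 15.22 and 15.24 RPKM in WT and 2.199 and 3.951 RPKM under the KO label. Fam180a, mt-Co1, the mitochondrial gene of cytochrome oxidase subunit 1, Vegfb, a growth factor gene, and Atp2a1, the calcium pump of fast muscle, followed at 0.0995 to 0.254. Within the set Chrnb1 was nearest at 0.394 and Chrng next at 0.522. With 4 libraries in 2 groups likeness is common: 323 genes, or 3.79%, had r above 0.95.

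The coding sequences of the set were 51.71% (Chrna1) to 61.99% (Dok7) GC. In all genes, the log2 difference was lower at high GC, as the plot of change by coding GC shows. The median difference of coding genes within 2 points of GC was 0.17 for Chrna1, 0.04 for Chrnb1, -0.08 for Chrnd and -0.21 for Chrng. For Agrn that median was -0.25, against its own -0.16. The 4 fitted genes with a run of 3 prolines had differences of -2.06 (Chrna1), -1.61 (Chrnb1), -0.54 (Musk) and -0.16 (Agrn), and those without one had -2.36 (Chrng), -1.04 (Rapsn), -0.87 (Chrnd) and 0.17 (Lrp4). The ranges overlapped, and nothing is read from them about proline runs. The set was chosen through Chrna1, held few genes of each kind, and Chrng passed the filter through its WT values.

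**Figure D5:**
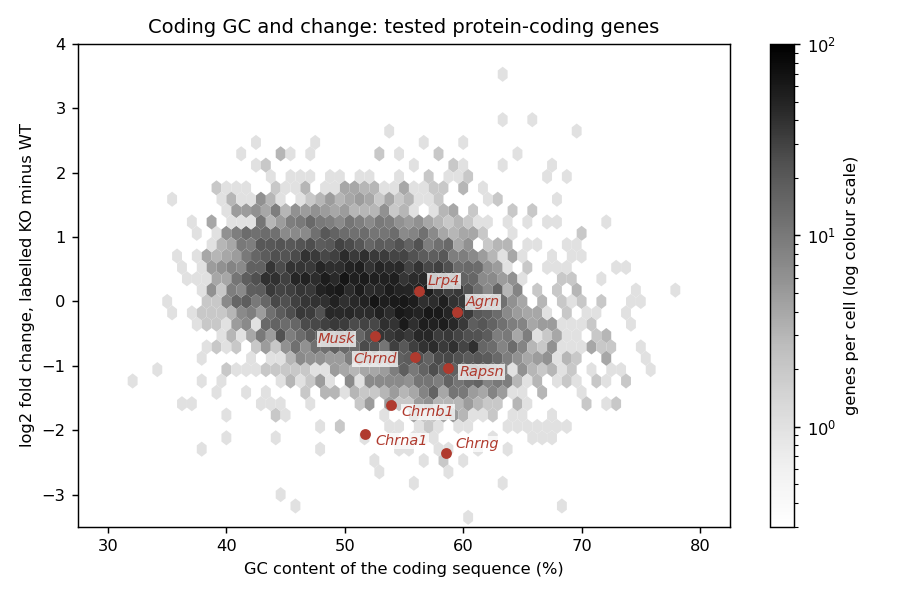
Log2 fold change, labelled KO minus WT, against GC content of the coding sequence (%) for the fitted protein-coding genes; the grey scale is the number of genes per cell on a log scale and the red points are the 8 fitted genes of the set. Chrna1, at 51.71% GC, lies at -2.06 where the median of its neighbours is 0.17.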

How the data were processed

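Ribosome-protected RNA was sequenced from 2 WT and 2 libraries labelled KO, grouped by the sample titles and genotypes. The deposited table held RPKM values that the authors computed per gene; per the labels, TopHat, TopHat2 and HTSeq were used with the mm10 build, and versions and the strand rule are not given in the sources used here. The titles say Polysome-Seq, whereas the extraction describes ribosome profiling. RPKM times gene length was a whole multiple of 1 step in 100% of values above 0 (tolerance 0.01), which gave the reads. The step implied that the authors divided by 471136 to 906990 reads, not by the recovered totals.

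RPKM values were tested with limma 3.58.1 (R 4.3.3, eBayes with a mean trend) on log2(RPKM + 1), which understates changes of low genes, keeping genes whose mean reached 1 RPKM, with Benjamini-Hochberg adjustment over all 11363. Alternatives changed the pseudocount (0.1), the filter (every gene above 0, 5 RPKM or 20 reads), scaling, trend, a replicate block, coding GC, the count model (limma-voom) and each library in turn. A planned exact permutation test of Chrng against Chrne over the 4 libraries is not used, since its smallest possible p is 0.125 and Chrne had no reads. The scripts were tested on simulated data. Poisson intervals and the limit of 3 reads cover counting error only.

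The members and lists were chosen with earlier results of these data known. Named for each pathway list were any called gene, that of highest mean RPKM, and the 2 of smallest unadjusted p at 20 or more reads. Eif5a, Myod1, Myog and the 5 genes nearest to Chrna1 were also named. Ache, Colq, Dach2, Chrna7, Chrnb2, Adgre1, Csf1r, Cd68, Lyz2, Dcn, Pdgfra, Postn, Lum, Thy1, Cdh15 and Itga7 were added after their values were seen. Among the marker genes, Chat, Slc5a7, Mnx1 and Tnnc2 were named because they had no reads. Gene IDs matched GENCODE M21 for 99.7%, and of those 99.6% had equal coordinates. Rapsn shares 4 exon bases with Gm13778 on the opposite strand, which had no reads.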

Additional observations from a re-analysis of the deposited data

How the results depend on the processing

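Genes called over the whole table numbered 11 lower and 1 higher under the KO label, and the same numbers were found with equal sums over protein-coding genes and with quantile normalization. The count was 0 in either direction with pseudocount 0.1 and when the filter was any value above 0, 5 RPKM or 20 reads. It was also 0 with no mean trend, with the replicate block and with the coding GC trend removed. Unadjusted calls numbered 254 to 533 lower and 178 to 403 higher in these 7 fits, which kept all libraries. Leaving out 1 library leaves a group of 1, so those fits are used for differences only. Scaling to the same sum gave 5 lower and 3 higher (unadjusted 96 and 1647). The limma-voom fit gave 39 lower and 0 higher, with 611 and 319 unadjusted. The cause of these shifts was not tested. The labels do not say whether the replicate numbers pair the samples. Same-numbered libraries deviated from their group means with a correlation of 0.0575 over 11363 genes. That value cannot show whether they were prepared together. With 2 libraries a group the replicate block can change the error of a difference but not the difference. 

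Chrna1 stayed below 0 in 15 of 15 alternatives, from -2.44 to -1.15, and leaving out 1 library gave -2.44 to -1.68. The -1.15 came from scaling to the same sum, where the median of all genes was 0.84. Chrnb1, Chrnd and Chrng also stayed below 0, with Chrnd at -0.0028 under that scaling and Chrng at -4.65 with pseudocount 0.1. Before subtraction of the median, Musk was 0.18 and Agrn 0.83 under that scaling, and Rapsn was 0.03 without library 1 labelled KO. Agrn was also above 0 with the coding GC trend removed (0.18), without WT library 1 (0.26) and without library 2 labelled KO (0.13). The pathway median was 0.77 under the same scaling and 0.06 without WT library 1. No pathway gene was called in any alternative that kept all libraries. Chrna1 ranked 2 by RPKM over all libraries and 1 per kilobase of coding sequence. Depth limits Musk, Rapsn and Lrp4, whose rate ratios had wide counting intervals that included 1.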
